A study of Mus musculus with 10 samples.

Results

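Complement and coagulation proteins are plasma proteins that the liver secretes, and their transcripts were described here in liver RNA. The set held 38 genes, taken by gene symbol, 18 of complement and 20 of coagulation, and all 38 were found among the 29657 genes of the expression table. All 38 also passed the filter on low values, which asked for 0.5 FPKM or more in 5 or more libraries. FPKM counts sequenced fragments scaled to transcript length and to library size.

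The 10 libraries came from livers of C57BL/6 mice fed CDAHFD for 8 weeks, a choline-deficient, amino acid-defined diet rich in fat that produces fatty liver with inflammation and fibrosis. One group of 5 carried the genotype label of a hepatocyte-specific knockdown of galectin-3 and received AAV8-TBG-galectin-3, where AAV8 is a virus that delivers genes to the liver and TBG is a promoter active in hepatocytes. The other 5 were labelled WT and received AAV8-NC by the same intravenous route. Sex, age and the insert of the vector are not given in the sources used here, and no group without the diet was analysed here.

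Complement is a cascade of plasma proteins that marks and lyses microbes and damaged cells. The classical, lectin and alternative routes converge on cleavage of C3, and cleavage of C5 then starts the terminal pathway, in which C6 to C9 form the membrane attack complex. Coagulation is a parallel cascade of proteases that ends when thrombin cuts fibrinogen to fibrin, and anticoagulant and fibrinolytic proteins limit it. Hepatocytes are the main source of most of these proteins, several of which are also acute phase proteins.

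The targeted transcript did not follow the label. Lgals3 (ENSMUSG00000050335), which encodes galectin-3, averaged 74.2 ± 20.1 FPKM in the libraries labelled knockdown and 70.8 ± 22.9 FPKM in control libraries (SD, n = 5 each; log2 fold change 0.08, exact two-sided permutation p = 0.794 over 252 assignments, where the smallest possible p was 0.00794). Other liver cells, macrophages among them, express Lgals3 too. The group is therefore called labelled knockdown, and each direction below rests on the labels. The 11 hepatocyte markers examined were present in every library, with a summed level of 36944 to 47071 FPKM in labelled knockdown livers and 40385 to 45537 FPKM in control livers. Of them, Apob, Hnf4a and Cps1 were lower and Ttr higher by the test used below. Between 21653 and 23079 genes were above 0 in each library. The low values did not fall on steps of whole fragments, so depth in fragments is not known, and precision is given by the spread between libraries. Libraries also differed by transcript length: each doubling of length shifted a gene's log2 value, relative to its mean over all libraries, by -0.035 ± 0.019 in labelled knockdown and by 0.035 ± 0.011 in control libraries (SD, n = 5 each). These slopes did not overlap between groups (two-sided exact permutation test, p = 0.00794).

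Within the groups, 1 library on each side stood apart for these genes. Labelled knockdown 1 was the lowest of its group for 11 of 18 complement and 15 of 20 coagulation genes. Control 5 was the lowest of its group for 15 of 18 complement and 10 of 20 coagulation genes. Counts are therefore also given without each of them. Control 5 stood apart in the transcripts described here, so its removal does not give an independent result.

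The first comparison asked which complement and coagulation transcripts differed between labelled knockdown and control livers. In labelled knockdown livers, 8 of the 38 transcripts were called lower and 0 higher, beside 9.65% and 7.13% of all genes tested. The 8 were C9, C8a and Hc of the terminal pathway, C3, the inhibitor gene Cfi, the fibrinogen chain gene Fga, and the factor V and protein S genes F5 and Pros1. Lectin pathway, contact factor and fibrinolysis transcripts were not among them. After the trend with transcript length was removed, 2 of the 38 were lower, C9 and Cfi, beside 5.46% of all genes tested. In bulk liver, fewer cells of a type and less RNA per cell cannot be told apart.

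By class, 5 of 18 complement genes and 3 of 20 coagulation genes were lower (limma across all genes tested, Benjamini-Hochberg adjusted p under 0.05). Over all 13471 genes tested, 9.65% were lower and 7.13% were higher. The median log2 fold change was -0.26 over the complement genes and -0.10 over the coagulation genes, beside -0.04 over all genes tested. The fold change was below 0 for 15 of 18 complement and 16 of 20 coagulation genes, beside 55.6% of all genes tested. At an unadjusted limma p under 0.05 there were 9 of 18 complement and 7 of 20 coagulation genes, beside 33.5% of all genes tested. Without control 5, 9 complement and 4 coagulation genes were lower, and without labelled knockdown 1 there were 2 and 1. The complement count was also 2 without labelled knockdown 2, 3 without labelled knockdown 5, 1 without control 2, 2 without control 3 and 2 without control 4. The coagulation count was also 1 without labelled knockdown 5, control 2, control 3 or control 4, each left out alone. Over all genes tested, the lower calls also changed from 1300, to 1254 without control 5 and 826 without labelled knockdown 1. They were 830 and 712 without labelled knockdown 2 and 5, and 533, 615 and 791 without control 2, 3 and 4. Median-of-ratios scaling of the libraries ended the calls of C3, Hc and Fga, with adjusted p of 0.0814, 0.0676 and 0.0970, and over all genes it gave 1240 higher and 1060 lower in place of 960 and 1300. With no filter on low values C3, C8a, C9, Fga and Pros1 missed the threshold, with adjusted p of 0.126, 0.0899, 0.0601, 0.110 and 0.0651.

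**Figure D1:**
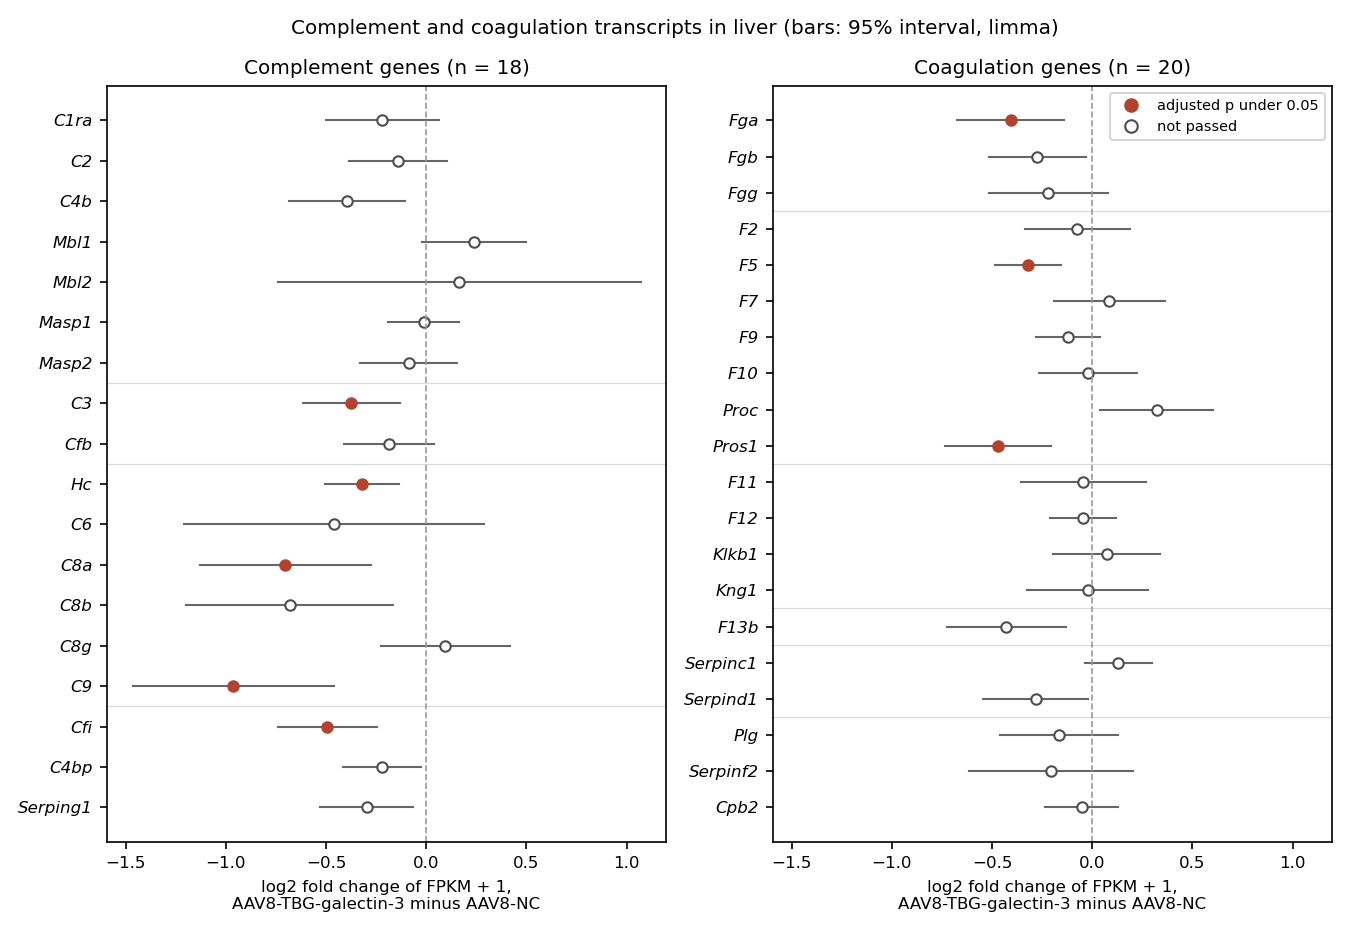
Log2 fold change of FPKM + 1, labelled knockdown (AAV8-TBG-galectin-3) minus control (AAV8-NC), for the 18 complement genes (left) and 20 coagulation genes (right), in the order of their roles, with lines between roles. Bars are 95% limma intervals over 5 libraries a group, and filled points are the 8 genes with an adjusted p under 0.05, all of them left of 0.

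The mean share of the liver transcript pool held by each class was smaller in labelled knockdown libraries. The summed FPKM of all genes, which divides each share, was larger there, at 401666 ± 12562 against 380593 ± 7412 in control libraries (SD, n = 5 each). Before this division, the complement genes summed to a mean of 2546 FPKM in labelled knockdown and 3189 FPKM in control libraries. The coagulation genes summed to a mean of 5110 and 5737 FPKM. Complement genes held 0.505, 0.624, 0.711, 0.693 and 0.646% of all FPKM in labelled knockdown libraries 1 to 5, against 0.851, 0.845, 0.882, 0.870 and 0.743% in control libraries 1 to 5. The groups did not overlap, and control 5 lay nearest to the labelled knockdown range. Coagulation genes held 1.28 ± 0.203% in labelled knockdown and 1.51 ± 0.0810% in control libraries (SD, n = 5 each), and there the groups overlapped by a narrow margin, with 1.428% in labelled knockdown 2 and 1.427% in control 2. These shares are descriptions without a test, and C3 alone makes up a large part of the complement sum.

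**Figure D2:**
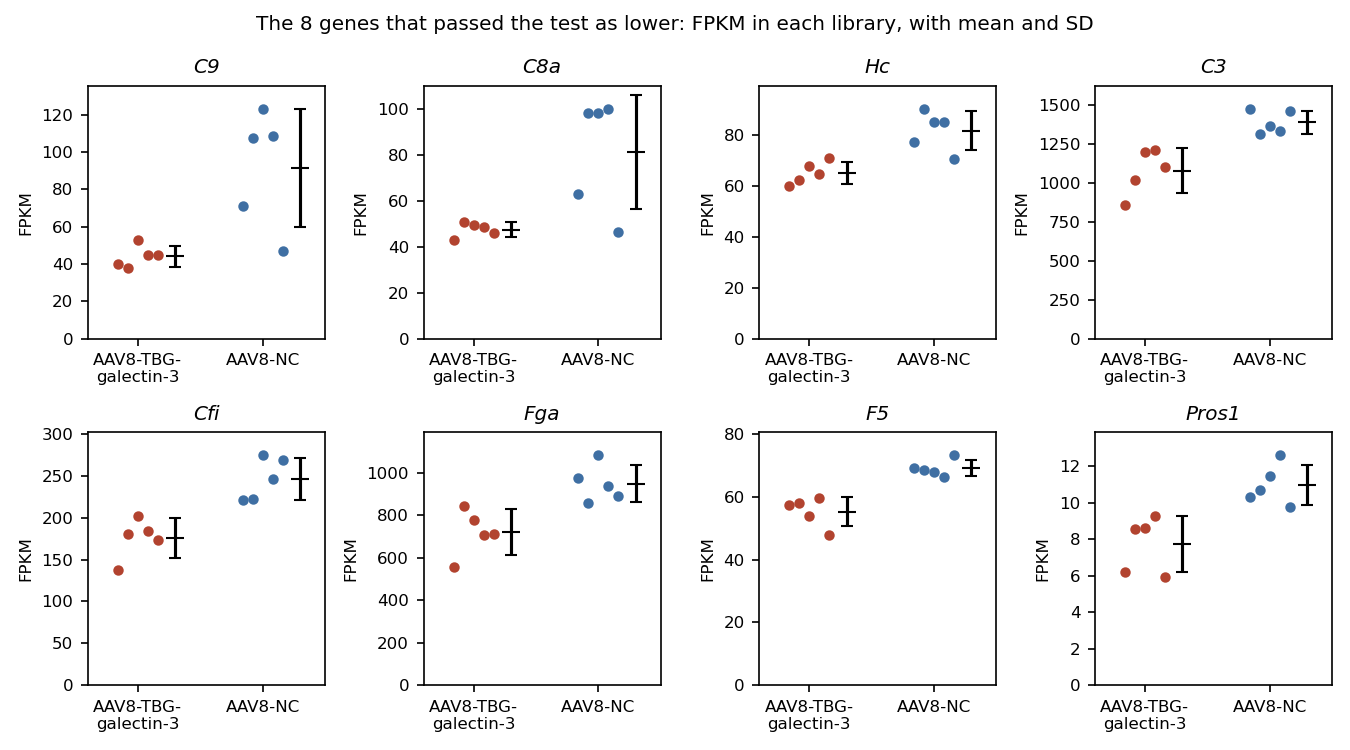
FPKM of the 8 genes that passed the test as lower, in each of the 5 labelled knockdown (AAV8-TBG-galectin-3, left) and 5 control (AAV8-NC, right) libraries, drawn in the order of replicates 1 to 5, with the mean and SD beside the points on an axis from 0. For C3, Cfi, Fga, F5 and Pros1 no labelled knockdown library reaches the lowest control library, while for C9, C8a and Hc control 5 lies within the labelled knockdown range.

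The largest differences lay in the terminal pathway, whose products assemble into the pore of the membrane attack complex. Of its 6 genes, 3 were lower and 0 higher, beside 9.65% and 7.13% of all genes tested, and the median of the log2 fold changes was -0.57. The count of lower genes was 1 after the trend with transcript length was removed. It was 1 without labelled knockdown 1 and 5 without control 5, where all genes gave 826 and 1254 lower in place of 1300. C9 (ENSMUSG00000022149), which encodes the subunit that polymerizes to form the pore, had 39.8, 38.0, 52.8, 45.0 and 44.6 FPKM in labelled knockdown libraries 1 to 5, against 71.1, 108, 123, 108 and 46.6 FPKM in control libraries 1 to 5. Control 5 lay inside the labelled knockdown range and the other control libraries lay above it. C9 averaged 44.0 ± 5.74 FPKM in labelled knockdown and 91.4 ± 31.5 FPKM in control libraries (SD, n = 5 each), a log2 fold change of -0.96 (SE 0.23, limma adjusted p = 0.0205). Leaving out 1 library at a time kept this call 9 times of 10, and the adjusted p was 0.0525 without control 2. In the authors' deposited table, C9 was the only 1 of the 38 genes marked as significant, with a log2 ratio of -1.05 and a q-value of 0.000312. The authors' q-value was under 0.05 for 5 of the 38 genes. Besides C9 these were C8a (0.00485), F5 (0.00323), Cfi (0.0156) and Pros1 (0.0235), all with a log2 ratio below 0 and not marked.

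C8a (ENSMUSG00000035031), which encodes the alpha chain of C8, had 42.7, 50.7, 49.3, 48.3 and 45.7 FPKM in labelled knockdown libraries, against 62.8, 97.9, 98.2, 99.8 and 46.5 FPKM in control libraries. As with C9, control libraries 2, 3 and 4 were high, control 1 was between, and control 5 was inside the labelled knockdown range. Its log2 fold change was -0.70 (SE 0.20, limma adjusted p = 0.0331). The call was lost without labelled knockdown 1, 2, 3 or 5 or control 2, 3 or 4, with an adjusted p of up to 0.0784, and became 0.00936 without control 5. Hc (ENSMUSG00000026874), the mouse gene of C5, had 60.3, 62.3, 68.2, 64.9 and 70.9 FPKM in labelled knockdown libraries, against 77.6, 90.4, 85.5, 85.4 and 70.6 FPKM in control libraries. Control 5 overlapped with labelled knockdown 5 by a small margin, and the other control libraries lay above all labelled knockdown libraries. The log2 fold change of Hc was -0.32 (SE 0.08, limma adjusted p = 0.0286), a call that was lost without labelled knockdown 1 or 2 or control 2, 3 or 4, with an adjusted p of up to 0.0724.

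C8b and C6 did not pass, but their libraries were ordered in a similar way. C8b, the gene of the beta chain of C8, had 15.5, 25.3, 31.2, 24.7 and 30.8 FPKM in labelled knockdown libraries, against 35.3, 50.5, 53.5, 47.2 and 23.7 FPKM in control libraries. Its log2 fold change was -0.68 (SE 0.24, limma adjusted p = 0.0672), and -0.87 with an adjusted p of 0.0189 without control 5. With any other library left out alone C8b did not pass, with an adjusted p of up to 0.144. C6, whose product binds C5b to begin the complex, had 19.7, 19.2, 21.9, 27.0 and 25.5 FPKM in labelled knockdown libraries, against 22.7, 51.6, 39.9, 52.9 and 11.8 FPKM in control libraries. Here both control 1 and control 5 were as low as the labelled knockdown libraries or lower, and the log2 fold change of -0.46 had an adjusted p of 0.372, or -0.79 with 0.0358 without control 5. With any other library left out alone C6 did not pass, with an adjusted p of up to 0.621. C8g, the gene of the gamma chain of C8, which belongs to the lipocalin family, stood at 114, 117, 113, 109.7 and 146 FPKM in labelled knockdown libraries, against 114, 126, 121, 132 and 75.3 FPKM in control libraries. Its log2 fold change was 0.10, with a 95% interval of -0.23 to 0.42, and it turned to -0.04 without control 5 and to -0.03 with array weights.

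**Figure D3:**
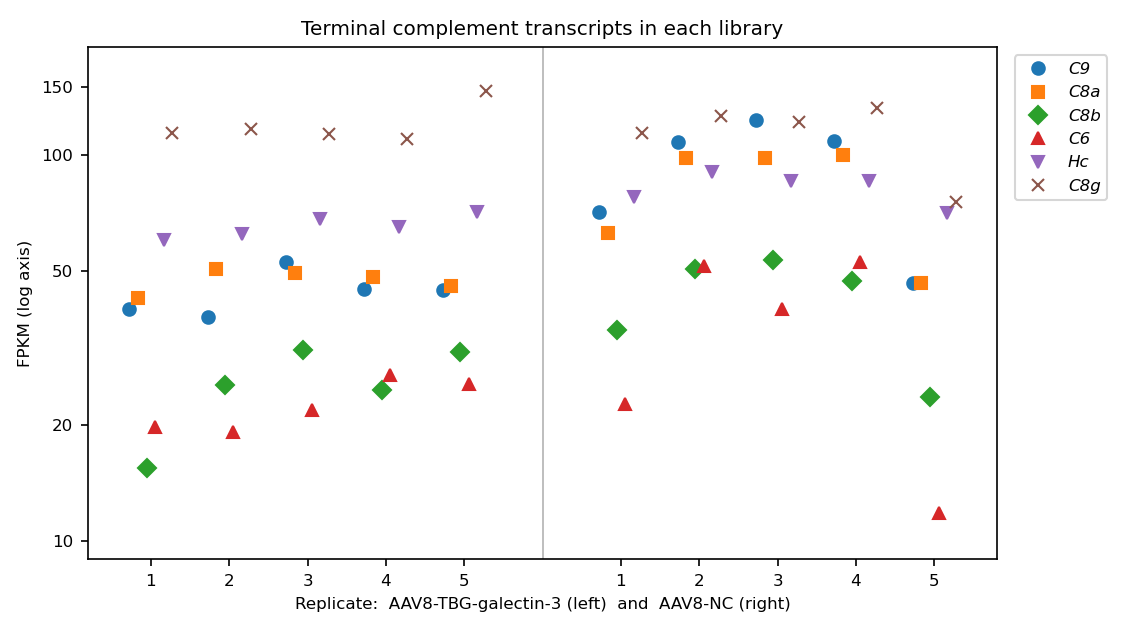
FPKM, on a log axis, of the 6 terminal pathway genes in each labelled knockdown library (AAV8-TBG-galectin-3, replicates 1 to 5, left) and each control library (AAV8-NC, replicates 1 to 5, right). For C9, C8a, C8b and C6, control libraries 2, 3 and 4 lie above every labelled knockdown library, while control 5 lies at 46.6, 46.5, 23.7 and 11.8 FPKM.

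The spread between libraries is shown by the coefficient of variation. It was larger in labelled knockdown libraries for 6 complement and 17 coagulation genes, and larger in control libraries for 12 complement and 3 coagulation genes. It was 13.03% in labelled knockdown and 34.5% in control libraries for C9, 6.72% and 30.6% for C8a, and 15.3% and 50.5% for C6. Mbl2, a lectin pathway gene, was at 8.78% in labelled knockdown and 50.8% in control libraries. For C8b the values were 25.0% and 29.4%. C3 went the other way, with 13.5% in labelled knockdown and 5.38% in control libraries, as did F2, the prothrombin gene, with 17.3% and 4.403%, and Serpinf2, the alpha-2-antiplasmin gene, with 28.0% and 7.96%. These values were not tested.

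The promoters of C9, C8a and C8b are shown because these genes had the largest differences, and because C8a and C8b are close to each other on chromosome 4. The sequences are those of RefSeq on GRCm38.p6, running from 250 bases before to 50 bases after the annotated start. They lie at chr15:6445096-6445395 on the plus strand for C9, chr4:104876349-104876648 on the minus strand for C8a and chr4:104766067-104766366 on the plus strand for C8b. They are written 5′ to 3′, and capitals mark matches to the motifs searched, on either strand.
C9: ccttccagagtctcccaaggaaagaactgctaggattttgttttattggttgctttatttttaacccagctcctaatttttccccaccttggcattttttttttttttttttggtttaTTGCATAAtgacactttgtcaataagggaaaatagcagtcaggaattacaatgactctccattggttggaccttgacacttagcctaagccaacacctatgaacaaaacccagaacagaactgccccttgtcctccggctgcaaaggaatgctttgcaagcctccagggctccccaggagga
C8a: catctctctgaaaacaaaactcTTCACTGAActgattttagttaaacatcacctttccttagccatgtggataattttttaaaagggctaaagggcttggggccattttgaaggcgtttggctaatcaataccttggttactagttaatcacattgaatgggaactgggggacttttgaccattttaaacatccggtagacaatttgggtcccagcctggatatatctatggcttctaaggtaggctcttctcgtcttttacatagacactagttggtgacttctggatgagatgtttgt
C8b: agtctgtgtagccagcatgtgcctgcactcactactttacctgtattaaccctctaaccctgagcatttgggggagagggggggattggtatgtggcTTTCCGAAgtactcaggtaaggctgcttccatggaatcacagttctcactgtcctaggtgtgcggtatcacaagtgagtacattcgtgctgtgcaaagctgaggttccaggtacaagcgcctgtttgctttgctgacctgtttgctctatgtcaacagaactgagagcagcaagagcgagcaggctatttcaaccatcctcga

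Promoters were found in RefSeq for 29 of the 38 genes. The motifs, chosen with these results known, were searched on both strands: TTNNGNAA for C/EBP factors, TTCNNNGAA for STAT factors, GTTAATNAT for hepatocyte nuclear factor 1 and CAAAGTCCA for hepatocyte nuclear factor 4. The C9 promoter held the C/EBP letters starting 132 bases before the annotated start, and the C8b promoter held them starting 153 bases before it. Both of these matches lie on the strand opposite to the one printed, so their capitals show the reverse complement of the motif. The C8a promoter held the STAT letters starting 228 bases before its annotated start. Of the 29 promoters, 18 held the C/EBP motif, 7 the STAT motif, 4 the hepatocyte nuclear factor 1 motif and 0 the hepatocyte nuclear factor 4 motif. Among all 32851 promoters of the same length these shares were 40.7%, 8.30%, 0.801% and 0.475%. The C/EBP and STAT motifs can overlap, and a match describes only the letters in this window.

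At the centre of the cascade, C3 fell and Cfb did not pass. C3 (ENSMUSG00000024164), the protein on which all routes converge, had 860.1, 1015, 1195, 1213 and 1104 FPKM in labelled knockdown libraries, against 1474, 1311, 1363, 1333 and 1461 FPKM in control libraries. The groups did not overlap, and C3 had the highest FPKM of the complement genes in both groups. It averaged 1078 ± 145 FPKM in labelled knockdown and 1388 ± 74.7 FPKM in control libraries (SD, n = 5 each), a log2 fold change of -0.37 (SE 0.11, limma adjusted p = 0.0404). Leaving out 1 library at a time kept this call once, without labelled knockdown 4, and the adjusted p was otherwise up to 0.0819. Cfb, the protease of the alternative convertase, averaged 321 ± 37.7 FPKM in labelled knockdown and 364 ± 29.8 FPKM in control libraries (log2 fold change -0.19, adjusted p = 0.230).

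Among inhibitors, the clearest difference was in Cfi (ENSMUSG00000058952), which encodes factor I, the protease that cuts C3b and C4b. Cfi had 138, 180.6, 202, 185 and 173 FPKM in labelled knockdown libraries, against 221, 223, 275, 246 and 269.7 FPKM in control libraries. No labelled knockdown library reached the lowest control library. Its log2 fold change was -0.49 (SE 0.11, limma adjusted p = 0.0179), and it passed whichever library was left out and under all 8 other settings tried. C4bp, a cofactor for factor I, and Serping1, the inhibitor of C1 and of plasma kallikrein, did not pass, at log2 fold changes of -0.22 (adjusted p = 0.107) and -0.30 (0.0760). Serping1 passed without control 5, with an adjusted p of 0.0260. With any other library left out alone it did not pass, with an adjusted p of up to 0.159. Labelled knockdown lay wholly below control for 2 of the 18 complement genes, C3 and Cfi, and for 4 of the 20 coagulation genes, beside 7.48% of all genes tested. It lay wholly above for 0 and 1, beside 5.66%, and in either direction for 7 of the 38, beside 13.1%.

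The genes that start the classical and lectin routes gave 0 calls among 7, beside 16.8% of all genes tested called in either direction. C4b, the highest of them in FPKM and the source of the C4 fragment of the convertase, had 90.6, 104, 138, 108 and 128 FPKM in labelled knockdown libraries, against 133, 155, 162, 174 and 122 FPKM in control libraries. The groups overlapped through control 5 and control 1, and the log2 fold change of -0.39 had an adjusted p of 0.0609. C4b has a close copy, C4a, so its reads could have been shared. C1ra, a protease of C1 with a similar neighbour C1rb, was at a log2 fold change of -0.22 (adjusted p = 0.255), and C2, the protease of the classical convertase, at -0.14 (0.407). The lectin pathway proteases Masp1 and Masp2 were at -0.01 (95% interval -0.19 to 0.16) and -0.09 (-0.33 to 0.15).

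The mannose-binding lectin genes differed from each other in spread. Mbl1 had 79.7, 88.4, 97.6, 79.7 and 83.8 FPKM in labelled knockdown libraries, against 79.4, 72.4, 87.6, 73.1 and 54.5 FPKM in control libraries, a log2 fold change of 0.24 (adjusted p = 0.188). Mbl2 had 68.6, 66.7, 58.8, 56.8 and 58.2 FPKM in labelled knockdown libraries, against 54.7, 79.9, 75.7, 102 and 14.3 FPKM in control libraries. Control 5 held the least Mbl2 of all libraries and control 4 the most. The log2 fold change of Mbl2 was 0.17 with an SE of 0.41 (adjusted p = 0.809), and it turned to -0.30 without control 5.

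The second class was coagulation, in which 3 of 20 genes fell, beside 9.65% of all genes tested. Each of the 3 was lower in all 5 labelled knockdown libraries than in any control library, as were 7.48% of all genes tested. After the trend with transcript length was removed, 0 of the 20 were lower. F5 (ENSMUSG00000026579), which encodes factor V, the cofactor of factor Xa, had 57.3, 57.9, 53.9, 59.5 and 47.8 FPKM in labelled knockdown libraries, against 69.2, 68.6, 67.9, 66.4 and 73.2 FPKM in control libraries. Control 5 was the highest of its group here. The log2 fold change of F5 was -0.32 (SE 0.08, limma adjusted p = 0.0198), and it passed whichever library was left out. Pros1 (ENSMUSG00000022912), the gene of protein S, a cofactor of activated protein C, was the lowest of the 38 genes in FPKM. It had 6.22, 8.59, 8.63, 9.27 and 5.96 FPKM in labelled knockdown libraries, against 10.3, 10.7, 11.5, 12.6 and 9.76 FPKM in control libraries. Its log2 fold change was -0.47 (SE 0.12, limma adjusted p = 0.0266), a call lost without labelled knockdown 1 or 5 or control 2, 3 or 4, with an adjusted p of up to 0.0610.

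The fibrinogen genes, which encode the 3 chains of the clot protein, were among the highest in FPKM. Fga (ENSMUSG00000028001), the alpha chain, had 554, 844, 780.1, 708 and 712 FPKM in labelled knockdown libraries, against 975, 856, 1082, 939.9 and 891 FPKM in control libraries. The groups did not overlap, though labelled knockdown 2 came near control 2. Its log2 fold change was -0.41 (SE 0.12, limma adjusted p = 0.0414), a call kept without labelled knockdown 2 or control 5. Without any other library it was lost, and the highest adjusted p was 0.0970. Fgg, the gamma chain, had 739.8, 1234, 1169, 1008 and 1091 FPKM in labelled knockdown libraries, against 1216, 1105, 1323, 1200.0 and 1179 FPKM in control libraries (log2 fold change -0.22, adjusted p = 0.281). Fgb, the beta chain, averaged 583 ± 83.2 FPKM in labelled knockdown and 700.5 ± 41.7 FPKM in control libraries (log2 fold change -0.27, adjusted p = 0.108). Labelled knockdown 1 was the lowest of all 10 libraries for each of the 3 chains.

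Vitamin K-dependent proteins other than protein S did not pass. F2, the prothrombin gene and the highest of this role group, had 225, 301, 341, 304 and 365 FPKM in labelled knockdown libraries, against 323, 308, 335, 329 and 302 FPKM in control libraries (log2 fold change -0.07, 95% interval -0.34 to 0.19). F7, F9 and F10, which encode proteases of the extrinsic and intrinsic tenase and the prothrombinase, were at log2 fold changes of 0.08, -0.12 and -0.02. Proc, the gene of protein C, which inactivates factors V and VIII, had 195, 218, 197, 185 and 196 FPKM in labelled knockdown libraries, against 179, 169, 169, 176 and 110.2 FPKM in control libraries. All labelled knockdown libraries lay above all control libraries for Proc, but its log2 fold change of 0.32 (SE 0.13) had an adjusted p of 0.105.

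The contact factors showed the smallest differences. Their 4 log2 fold changes lay between -0.05 and 0.07, with adjusted p from 0.703 to 0.924. Kng1, the kininogen gene and the highest of them, had 442, 692, 667, 535 and 602 FPKM in labelled knockdown libraries, against 599.8, 522, 598, 527 and 722 FPKM in control libraries, a 95% interval of -0.33 to 0.28 for the log2 fold change. It has a similar neighbour, Kng2, whose reads could be shared. F12, the gene of factor XII, was at -0.05 (95% interval -0.21 to 0.12), F11 at -0.04 and Klkb1, the plasma kallikrein gene, at 0.07.

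F13b, the carrier subunit of the fibrin cross-linking factor XIII, stood just outside the threshold. It had 32.9, 47.1, 54.6, 49.1 and 49.2 FPKM in labelled knockdown libraries, against 57.1, 68.0, 70.0, 66.7 and 51.3 FPKM in control libraries. Only control 5 lay inside the labelled knockdown range, and the log2 fold change of -0.43 (SE 0.14) had an adjusted p of 0.0506, or 0.0326 without control 5. With any other library left out alone F13b did not pass, with an adjusted p of up to 0.112. Fga, at 0.0414, was the coagulation gene just inside the threshold.

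Anticoagulant serpins and the fibrinolysis genes gave 0 calls among 5, beside 16.8% of all genes tested called in either direction. Serpind1, the heparin cofactor II gene, had 147, 221, 228, 209 and 209.7 FPKM in labelled knockdown libraries, against 245, 231, 234, 237 and 275 FPKM in control libraries. The groups did not overlap, and labelled knockdown 1 lay far below its group, with a log2 fold change of -0.28 (adjusted p = 0.122). Serpinc1, the antithrombin gene, was at 0.13 (0.256). Plg, the plasminogen gene, had 279.7, 393, 412, 355 and 407 FPKM in labelled knockdown libraries, against 431, 428, 449.9, 443 and 315 FPKM in control libraries (log2 fold change -0.17, adjusted p = 0.417). Serpinf2, the alpha-2-antiplasmin gene, and Cpb2, whose product slows fibrinolysis, were at -0.21 and -0.05.

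The third comparison took other genes of both pathways from lists of pathway names, 79 of them in the table and 66 tested. Of the 34 other complement genes tested, 7 were lower and 0 higher, and of the 32 other coagulation genes tested, 4 were lower and 1 higher, beside 9.65% lower and 7.13% higher over all genes. The 13 not tested, among them F8 and Vwf, had at most a mean of 0.408 FPKM. The median log2 fold change was -0.12 and -0.15. Without control 2, 1 of the 11 lower calls remained, and without control 1, 3 or 4 or labelled knockdown 1, 2, 3 or 5 the count was 3 to 5. Over all genes, the lower calls went from 1300 to 533 without control 2.

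Clu, the gene of clusterin, an inhibitor of the terminal complex, averaged 389 ± 64.6 FPKM in labelled knockdown and 559 ± 73.3 FPKM in control libraries (SD, n = 5 each), a log2 fold change of -0.53 (limma adjusted p = 0.0243), a call lost without control 2 or control 4. Cpn2, a subunit of the carboxypeptidase that trims anaphylatoxins, was at -0.50 (0.0492), a call kept only without control 5. C1rb was at -0.80 (0.0382), a call kept 4 times of 10 when 1 library was left out.

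Of the 34 other complement genes tested, 7 were lower, beside 9.65% of all genes tested. Among these 7 were 3 genes of receptors for complement fragments on leukocytes. C3ar1, the C3a receptor gene, averaged 3.09 ± 0.924 FPKM in labelled knockdown and 5.35 ± 1.21 FPKM in control libraries (log2 fold change -0.65, limma adjusted p = 0.0279). C5ar1, the C5a receptor gene (-0.47, 0.0494), and Itgam, a chain of complement receptor 3 (-0.50, 0.0322), also fell. With 1 library left out at a time, these receptors passed 5, 2 and 3 times of 10. C1qa, C1qb and C1qc, which macrophages express, were at -0.26, -0.40 and -0.43 and did not pass, with adjusted p of 0.259, 0.0842 and 0.0506. The 9 Kupffer cell markers summed to 40.8 to 79.5 FPKM across labelled knockdown libraries and to 75.5 to 159.9 FPKM across control libraries. Cd5l had the highest mean of them in both groups. Of those markers 7 were tested and 2 were lower, Adgre1 at -0.95 (adjusted p = 0.00684) and Cd5l at -1.01 (0.0160). The other 5 tested did not pass. The log2 fold change was below 0 for 6 of the 7 and above 0 for 1, Marco, at 0.70 (0.410). No Kupffer cell marker was at 0 in all libraries. The 5 neutrophil markers summed to 5.20 to 9.84 FPKM in labelled knockdown and 3.79 to 8.82 FPKM in control libraries. The part of these cells in the results was not tested.

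On the coagulation side, Habp2, a protease that can activate factor VII (log2 fold change -0.27, limma adjusted p = 0.0322), Thbd, the endothelial thrombomodulin gene (-0.39, 0.0267), F2r, a thrombin receptor gene (-0.51, 0.0297), and Anxa2, a cell surface protein that binds plasminogen (-0.53, 0.0382), were lower. With 1 library left out at a time, they passed 4, 4, 5 and 2 times of 10. Plgrkt, the gene of another plasminogen receptor, was the 1 gene that rose. It had 5.77, 4.69, 4.25, 4.23 and 3.35 FPKM in labelled knockdown libraries, against 3.16, 2.87, 2.78, 2.79 and 2.83 FPKM in control libraries, without overlap (log2 fold change 0.48, SE 0.10, adjusted p = 0.0158), and it passed whichever library was left out. Enzymes of the vitamin K cycle, Ggcx (0.04) and Vkorc1 (0.12), did not pass. The summed markers of sinusoidal endothelium, where Thbd is expressed, were 16.7 to 23.8 FPKM in labelled knockdown and 19.1 to 33.8 FPKM in control libraries, and their part was not tested.

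A list of 13 liver transcription factors and interleukin-6 signalling genes, which are known to control many of these genes, held 4 lower and 1 higher, beside 9.65% and 7.13% of all genes tested. Hnf4a, a hepatocyte nuclear receptor, averaged 64.3 ± 2.37 FPKM in labelled knockdown and 86.5 ± 6.77 FPKM in control libraries (log2 fold change -0.42, limma adjusted p = 0.00944). Stat3, the main transcription factor of interleukin-6 signalling (-0.52, 0.00944), Il6st, its receptor subunit gp130 (-0.61, 0.00818), and Cebpa (-0.46, 0.0369) fell. Nr1h4, the bile acid receptor gene, rose (0.37, 0.0248). Hnf4a, Stat3 and Il6st passed whichever library was left out, Cebpa 2 times of 10 and Nr1h4 6 times of 10. After the trend with transcript length was removed, 3 of the 13 were lower and 1 higher, beside 5.46% and 6.78% of all genes tested. Cebpa then missed the threshold (limma adjusted p = 0.0603), and it passed under 4 of the 8 other settings tried. The part of these regulators in the results was not tested.

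Transcript length moved with the groups and with the calls. Among the 21 complement and coagulation genes whose longest annotated transcript was 2.5 kb or longer, 6 were lower and 0 higher, beside 13.9% and 3.64% of all tested genes of that length. Among the 17 shorter genes 2 were lower, C9 and Cfi, and 0 higher, beside 3.90% and 11.9%. After the trend with length was removed from each library, 2 complement and 0 coagulation genes were lower, beside 5.46% of all tested genes, and 0 were higher, beside 6.78%. The 2 were C9, with a log2 fold change of -0.96 and an adjusted p of 0.0240, and Cfi, with -0.49 and 0.0267. The others became C8a -0.62 (adjusted p = 0.0633), Hc -0.21 (0.162), C3 -0.27 (0.147), Fga -0.36 (0.0908), F5 -0.20 (0.0562) and Pros1 -0.39 (0.0507). The medians became -0.18 for complement and -0.09 for coagulation genes. The split at 2.5 kb was chosen after the values were seen.

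**Figure D4:**
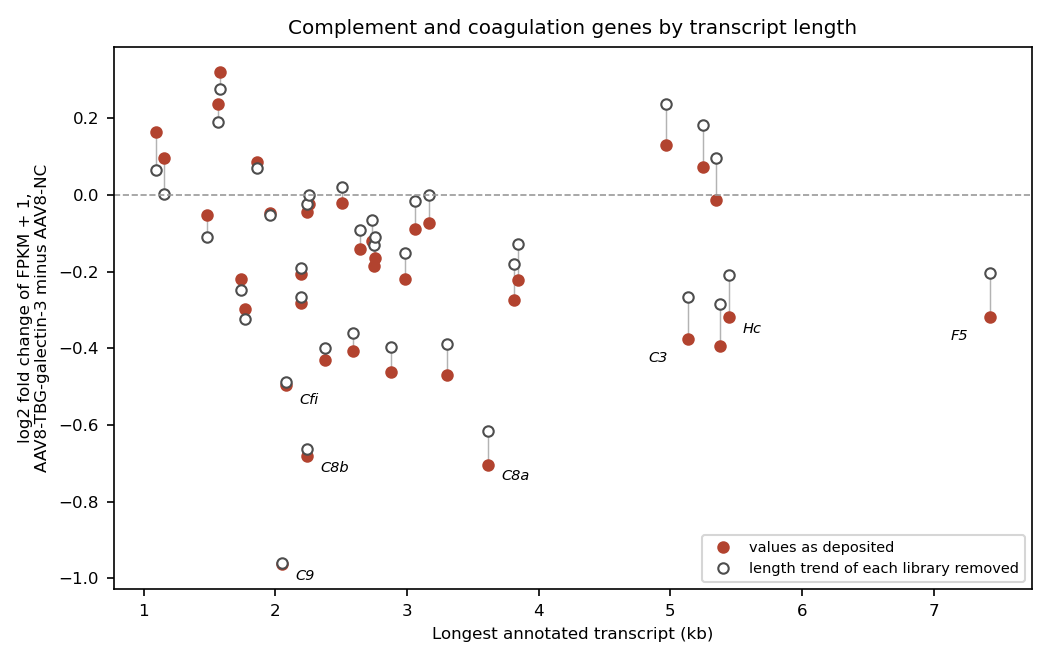
Log2 fold change of FPKM + 1, labelled knockdown minus control, against the longest annotated transcript in kb for the 38 genes. Filled points are the values as deposited and open points those after each library's length trend was removed, joined by a line. C9 and Cfi hardly move, while the genes above 5 kb, among them C3, Hc and F5, shift upward.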

How the data were processed

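Liver RNA of 10 libraries was profiled, grouped and numbered by the sample titles. Nothing ties each library to its own mouse, so p-values measure the spread between libraries, which may be technical. Per the labels' protocols, libraries were made from poly(A) RNA and marked strand, and no source here says whether counting used it. The submitters' processing notes list cutadapt 1.9, HISAT2 2.0.4 and StringTie 1.3.4d and name a human build, while the deposited identifiers are mouse, so coordinates are given only for RefSeq promoters. Per the file headers, the authors deposited FPKM per library, a fold (ratio of the groups), its log2 value, and p-values and q-values, whose test no source here names. No 2 libraries were identical, and 0 columns of other samples were present.

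Values were taken as log2(FPKM + 1), which understates the change of low genes. They were compared by limma 3.58.1 (R 4.3.3, trended variance), two-sided, with Benjamini-Hochberg adjustment over all 13471 genes that passed the filter and a threshold of 0.05, after the fit had been tested on simulated data. At the best step tried, 12.2 to 16.5% of low values came out as whole multiples within 0.02, so reads were not recovered. Transcript length was the longest per gene in GENCODE M21, and its trend was removed per library by a spline of 4 degrees of freedom. The genes, lists, motifs and tests were chosen with earlier results of these data known, so no set test was made. Values per library are given for each gene called and for the highest gene of each role group, and for some others chosen after their values were seen, as were the C1q and vitamin K genes named. Among the other pathway genes called, 1 is not reported here. The labels give no preparation or sequencing batch. Alternatives were another pseudocount and filter, 2 scalings, length, a replicate block, array weights and leaving out each library.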

Additional observations from a re-analysis of the deposited data

Results flagged for a closer look

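The most distant library of each group of 5 was set against the range of its group for the 38 genes and Lgals3, which made 78 sets of 5 values as log2(FPKM + 1). In 7 sets a library was far from the rest, where chance gives about 1 in 20. Of these, 5 were control 5 as the lowest of its group. It held C8g at 75.3 FPKM (other control libraries 114 to 132), F10 at 80.8 (98.2 to 99.5), Proc at 110.2 (169 to 179), Klkb1 at 22.7 (30.3 to 31.9) and Plg at 315 (428 to 449.9). Labelled knockdown 5 was the highest of its group in C8g, at 146 FPKM (others 109.7 to 117). Labelled knockdown 1 was the lowest in Serpind1, at 147 FPKM (others 209 to 228).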

How the results depend on the processing

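No called gene changed direction under any alternative run. The count of lower complement genes, 5, was 2 with no filter, 3 with median-of-ratios scaling, 8 with quantile normalization, 2 with the length trend removed and 3 with the replicate block, and 1 to 9 without 1 library. The count of lower coagulation genes, 3, was 1 with no filter, 5 with quantile normalization, 0 with the length trend removed and 2 with the replicate block, and 1 to 4 without 1 library. Among other pathway genes the 11 lower became 2 with no filter and 7 with the length trend removed, and 1 to 13 without 1 library, and the 1 higher became 2 with array weights, and 1 to 2 without 1 library. The block ended the calls of C3, Hc, Fga and F5, with adjusted p of 0.0834, 0.0614, 0.0736 and 0.0517, and F13b passed with 0.0421. Numbers did not pair the libraries: same-numbered libraries had deviations correlated at -0.015 to 0.11, and 2 of 5 correlated best with their own number. Over all genes, 960 were higher and 1300 lower, against 1240 and 1060 with median-of-ratios scaling, and 511 and 682 with no filter. Without 1 library, the lower calls over all genes ranged from 533 without control 2 to 1733 without labelled knockdown 4. Leaving mitochondrially encoded genes out of the shares, an alternative chosen after seeing the data, gave differences of -0.218 percentage points for complement and -0.236 for coagulation, against -0.203 and -0.232. The medians of both classes stayed below 0, from -0.35 to -0.18 for complement and from -0.15 to -0.02 for coagulation. Genes near 0 changed sign without passing: with array weights Mbl2 (-0.17), C8g (-0.025), Kng1 (0.12) and Cpb2 (0.016), with median-of-ratios scaling Masp1 (0.028), F10 (0.025), F11 (1.59e-05) and Kng1 (0.023), with quantile normalization Masp1 (0.010) and Kng1 (0.021), and with the length trend removed Masp1 (0.097), F2 (0.0012) and F10 (0.020). Lgals3, at 0.08, ranged from -0.093 to 0.26 without 1 library. Without 1 library the sign of the log2 fold change also turned for Mbl2 (-0.30 to 0.39), Masp1 (-0.058 to 0.016), C8g (-0.045 to 0.16), F2 (-0.14 to 0.033), F7 (-0.0023 to 0.16), F10 (-0.090 to 0.062), F11 (-0.15 to 0.014), Klkb1 (-0.016 to 0.11) and Kng1 (-0.086 to 0.075). The cause of these changes was not tested. Depth in fragments is unknown, so no counting error can be given.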
